A study of Mus musculus with 42 samples.

Results

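The genes described here are 9 regulators of the anterior second heart field and of pharyngeal mesoderm, namely *Isl1*, *Tbx1*, *Six2*, *Eya1*, *Foxc1*, *Lhx2*, *Tlx1*, *Ebf1* and *Pitx3*. They were taken by name, and each was found once among the 56953 Ensembl genes of the count table. Their RNA was counted in both heart fields, left and right, of 21 mouse embryos on a background that the study's methods spell C56Bl6J, microdissected separately at E8.5 without the heart tube, the head and the back. Of these embryos, 5 were wild types (Ccdc40+/+, 4 males and 1 female), 11 were Ccdc40lnks/lnks mutants with rightward looping of the heart (6 males and 5 females) and 5 were Ccdc40lnks/lnks mutants with inverted looping (3 males and 2 females). The lnks allele is a point mutation of *Ccdc40*, which encodes a component required for the beating of motile cilia, so that every mutant embryo carried the same lesion. The mutants differed by the direction in which the heart tube bent. The study further divided mutants by the asymmetries of these same libraries, and those classes are not used here. By that division its rightward mutants fell into a situs solitus and a heterotaxy class, so the rightward group here pools both.

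The second heart field is a pool of mesodermal progenitors in the dorsal wall of the pericardial cavity, from which cells are added to both poles of the heart tube. Its anterior part gives rise to the right ventricle and outflow tract and is continuous with the mesoderm of the pharyngeal arches, which also forms head muscles. ISL1 and TBX1 are transcription factors that keep these progenitors undifferentiated and dividing, EYA1 is a transcriptional coactivator that works with partners of the sine oculis family, and FOXC1, LHX2, TLX1, EBF1 and PITX3 are transcription factors of the forkhead, LIM-homeodomain, homeobox, COE and paired-homeodomain families. The comparisons ask whether these regulators differ between left and right, and whether that difference follows the direction of looping.

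Library totals were 36073684 to 62970327 counts, with a median of 43458644. Levels are given as CPM, counts per 1000000 counts after TMM scaling, with factors of 0.966 to 1.04. *Ccdc40* itself was at 15.4 to 26.3 CPM in the 10 wild-type libraries and at 8.88 to 14.6 CPM in the 32 mutant libraries, with no overlap. As a check of the tissue, the 18 other listed genes of the second heart field and pharyngeal mesoderm each had a median of at least 1 CPM. Markers of other tissues were detected too, with 8 of 8 myocardial, 7 of 8 pharyngeal endoderm, 5 of 6 neural crest, 6 of 7 neural tube and 5 of 6 paraxial mesoderm markers at a median of at least 1 CPM. In such bulk libraries, fewer cells of a type and less RNA per cell cannot be told apart.

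The 9 genes spanned a wide range of levels. Per kilobase of exon, *Isl1* was the most abundant, with a median of 22.9 CPM per kb over the 42 libraries, and it exceeded *Tbx1* in 42 of 42. *Tbx1* followed at 9.85 and *Eya1* at 7.45 CPM per kb, and this pair was not separated, as *Tbx1* was the higher in 26 of 42 libraries. The median per kb was 2.75 for *Ebf1*, 2.18 for *Six2*, 1.4 for *Tlx1* and 0.889 for *Foxc1*. Each of these neighbours overlapped the next, with *Ebf1* above *Six2* in 33 libraries, *Six2* above *Tlx1* in 35 and *Tlx1* above *Foxc1* in 36. *Foxc1* was above *Lhx2*, at a median of 0.186 CPM per kb, in 42 of 42 libraries. *Pitx3* was close to the limit of detection, at 0.0127 CPM per kb. A length per gene cannot account for the isoform that was expressed, and neighbours in this order were not tested against each other.

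**Figure D1:**
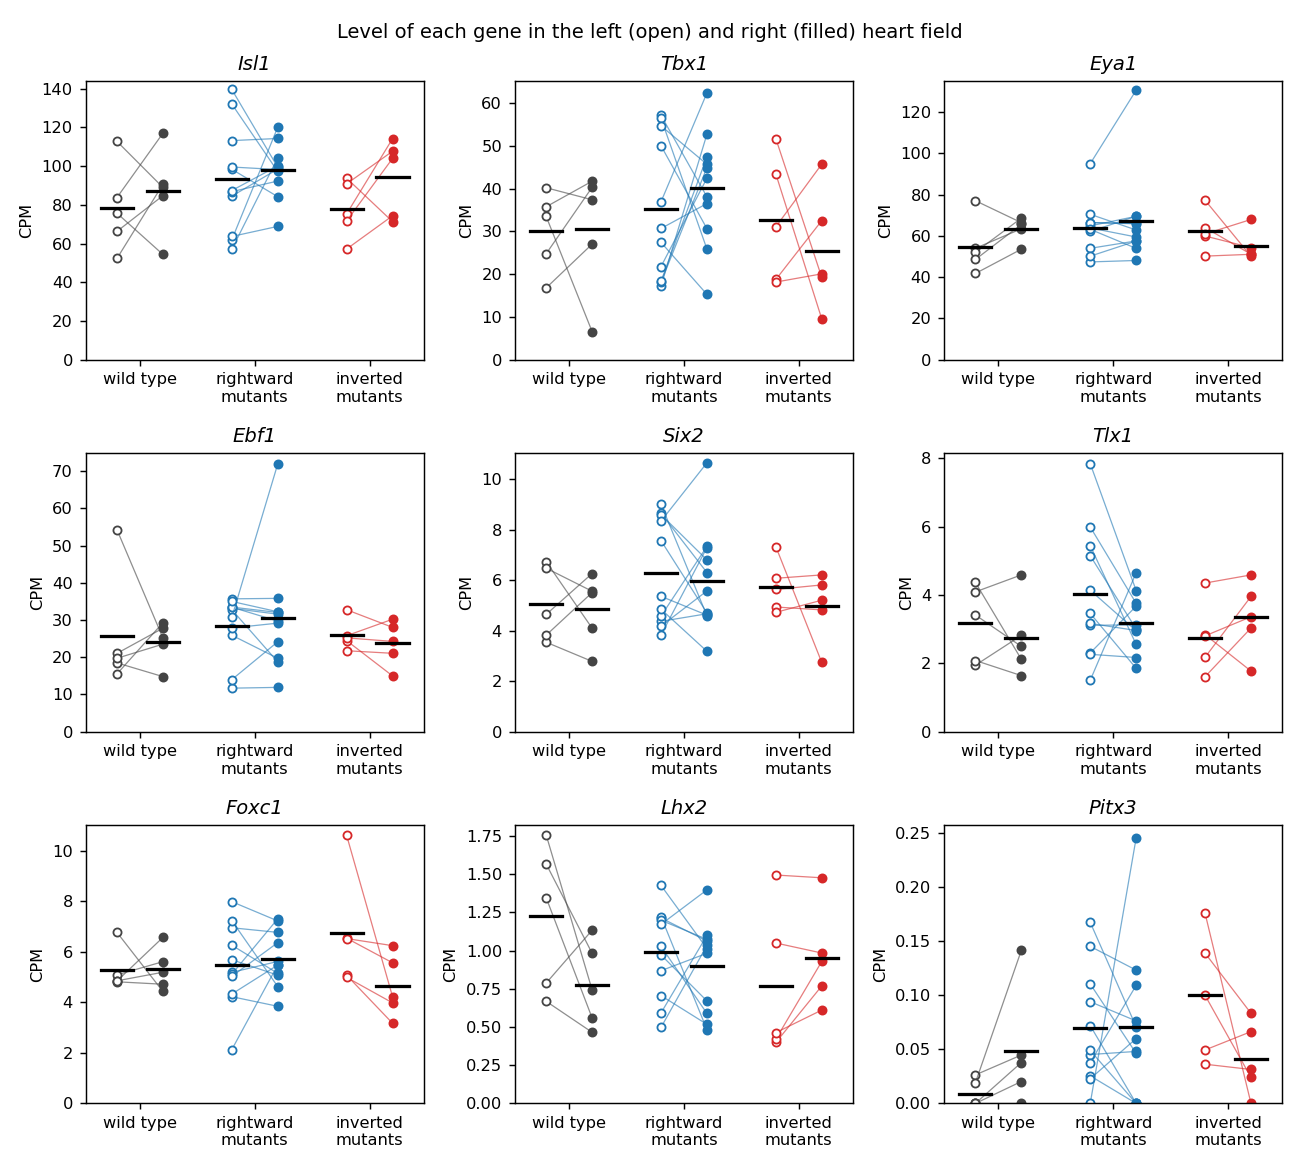
CPM of each of the 9 genes (y axis, from 0, a different scale in each panel) in the left (open circles) and right (filled circles) heart field of wild types (n = 5), rightward mutants (n = 11) and inverted mutants (n = 5). Lines join both sides of an embryo and black bars are means. The lines slope both ways in each group for most genes, and only for *Foxc1* in the inverted mutants do all 5 fall from left to right.

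No regulator passed the test for a difference between right and left. The paired test of right against left called 0 of the 8 genes that passed the filter on low counts in the wild types, where it called 0.0% of the 23182 genes tested. It called 0 of 8 in the rightward mutants, where it called 0.0263% of 22795 genes, and 0 of 8 in the inverted mutants, where it called 2.04% of 22960 genes. At an unadjusted p under 0.05, the count was 1 of 8 in the wild types (*Eya1*), 0 of 8 in the rightward mutants and 1 of 8 in the inverted mutants (*Foxc1*), beside 2.76%, 3.59% and 15.1% of all genes. The test was the quasi-likelihood test of edgeR, with the embryo as a block and Benjamini-Hochberg adjustment over all genes. DESeq2 called 0 of the 8 in the wild types and in the rightward mutants (0.082% and 0.136% of all genes) and 1, *Foxc1*, in the inverted mutants, where it called 7.64% of all genes. The median log2 fold change of the 8 genes was -0.02 in the wild types, 0.04 in the rightward mutants and -0.17 in the inverted mutants, beside 0.002, -0.00417 and -0.00502 over all genes.

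The difference of asymmetry between groups was tested directly in 1 fit of the 42 libraries, which also admitted *Pitx3*. Between inverted and rightward mutants, edgeR's test called 0 of the 9 genes, against 0.311% of 26335 genes, with 1 of the 9 (*Foxc1*) at an unadjusted p under 0.05, a share of 11.1% beside 10.5% of all genes. Between rightward mutants and wild types, it called 0 of 9 and 0.0% of 26335 genes, with 0 of the 9 under that unadjusted p, beside 3.04% of all genes. DESeq2 called 0 of the 9 in either contrast, and 1.62% and 0.0% of all genes.

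**Figure D2:**
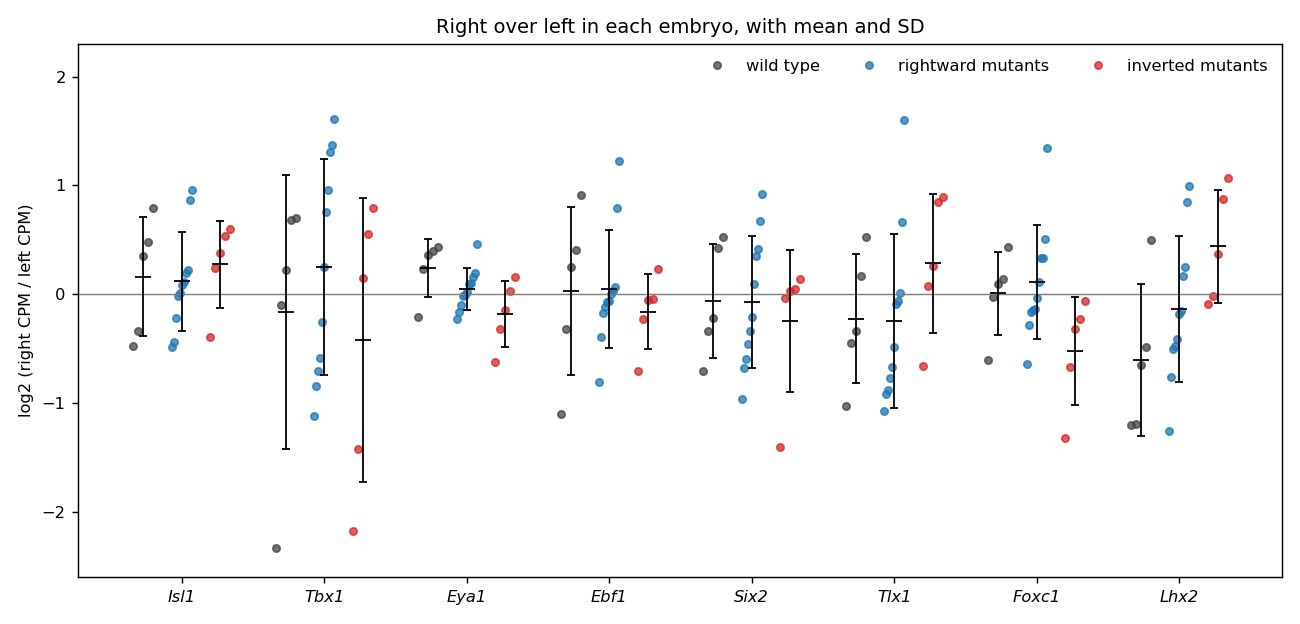
Log2 ratio of right over left CPM (y axis) in each embryo, for the 8 genes above the filter on low counts, in wild types (grey, n = 5), rightward mutants (blue, n = 11) and inverted mutants (red, n = 5), with the mean and SD in black. The groups overlap for every gene, and the *Tbx1* ratio spans the widest range, from -2.34 to 1.61.

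*Isl1* (ENSMUSG00000042258, chr13:116434817-116446235 in GRCm39) encodes the LIM-homeodomain factor that defines the second heart field, and its level changed by less than 2-fold between the sides of any embryo. Its level in the wild types 7_1, 8_1, 10_1, 17_7 and 22_4 was 66.3, 113, 75.7, 52.3 and 83.8 CPM on the left and 84.8, 89, 54.4, 90.6 and 117 CPM on the right. The inverted mutants 2_7, 4_6, 10_3, 18_2 and 32_2 had 71.7, 90.9, 93.8, 75.4 and 57.2 CPM on the left and 104, 108, 71.3, 114 and 74.4 CPM on the right. Over the 11 rightward mutants, the lowest, median and highest levels were 57.1, 87.4 and 139.6 CPM on the left and 68.9, 98.5 and 120.1 CPM on the right. Both sides overlapped in each group. Log2 right over left averaged 0.16 ± 0.55 (SD, n = 5) in the wild types, 0.12 ± 0.46 (SD, n = 11) in the rightward mutants and 0.27 ± 0.40 (SD, n = 5) in the inverted mutants. The right side was higher in 3 of 5 wild types, 7 of 11 rightward mutants and 4 of 5 inverted mutants. By the exact two-sided sign-flip test over embryos, p was 0.5, 0.425 and 0.25, where 5 embryos cannot give less than 0.062. The 95% confidence interval of the mean, -0.19 to 0.42 in the rightward mutants, ended at a 1.34-fold excess on the right. In the inverted mutants, edgeR gave a log2 fold change of 0.27 (SE 0.13) with an adjusted p of 0.377. That value moved with single embryos: the log2 fold change was 0.44 with an adjusted p of 0.0264 without 10_3, the only inverted mutant with more *Isl1* on the left, and 0.18 without 18_2, with adjusted p-values of up to 0.701 over the 5 embryos left out in turn.

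*Tlx1* (ENSMUSG00000025215, chr19:45139099-45145382), a homeobox gene known for its role in spleen formation that is also active in branchial arches, was expressed at a low level. Wild types, in the order 7_1, 8_1, 10_1, 17_7 and 22_4, had 2.08, 4.37, 3.41, 1.94 and 4.09 CPM of *Tlx1* on the left and 1.64, 2.12, 2.49, 2.81 and 4.59 CPM on the right. Levels in the inverted mutants 2_7, 4_6, 10_3, 18_2 and 32_2 were 2.18, 2.8, 2.84, 4.35 and 1.61 CPM on the left and 3.96, 3.36, 1.77, 4.59 and 3.03 CPM on the right. *Tlx1* in the rightward mutants ranged from 1.5 to 7.84 CPM on the left, with a median of 3.46, and from 1.85 to 4.65 CPM on the right, with a median of 3. The sides overlapped in each group, and the highest value stood on the left of the rightward mutant 2_2. Mean log2 ratios for *Tlx1*, right over left, were -0.22 ± 0.60 (SD, n = 5) in wild types, -0.24 ± 0.80 (SD, n = 11) in rightward mutants and 0.28 ± 0.64 (SD, n = 5) in inverted mutants. The left side was higher in 3 of 5 wild types and 8 of 11 rightward mutants, and the right side in 4 of 5 inverted mutants. For these means the exact sign-flip p was 0.5, 0.327 and 0.312. The difference of 0.53 between inverted and rightward mutants had an exact permutation p of 0.22. *Tlx1* shares 707 exonic bases with *Tlx1os* on the opposite strand, and as the use of strand in counting is not stated, reads of both could be mixed. *Tlx1os* itself had a group mean of 0.176 to 0.304 CPM, and its highest library reached 1.1 CPM.

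Whatever their direction, the asymmetries of *Isl1* and *Tlx1* went together. Over the 21 embryos, Pearson's r of the log2 ratios was 0.82 (permutation p of 2e-05) and Spearman's rho was 0.82 (p of 3e-05). Over the 28 pairs of genes compared, the adjusted p-values were 0.00056 and 0.00084. The value of r was 0.80 without the embryos 1_6 and 2_2, whose *Isl1* ratios lay farthest from the median, 0.83 after the group means were removed and 0.86 within the 11 rightward mutants. The rightward mutant 19_4 had log2 ratios of 0.87 for *Isl1* and 1.6 for *Tlx1*, and the rightward mutant 2_2 had -0.49 and -0.92. The inverted mutant 2_7 had ratios of 0.54 and 0.85 while 10_3 had -0.39 and -0.67. Both ratios of an embryo come from the same pair of libraries and share their scaling.

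The same libraries differed in other tissues. The summed level of the 8 myocardial markers, expressed as right over left, had an r of 0.71 with the *Isl1* ratio (rho of 0.75, permutation p of 0.00038 and 0.00019, adjusted p of 0.0137 and 0.00684 over 72 pairs) and of 0.62 with the *Tlx1* ratio (rho of 0.72, p of 0.00272 and 0.00034, adjusted p of 0.028 and 0.00816). Without the 2 farthest embryos these r were 0.72 and 0.51. The sum of the 6 paraxial mesoderm markers was mostly *Meox1*, at a median of 98 CPM against 0.961 to 1.89 CPM for the other 5, so that its r is largely that of 1 gene. For this sum, the r was -0.65 with *Isl1* (rho of -0.68, p of 0.00129 and 0.00092, adjusted p of 0.0204 and 0.0132) and -0.67 with *Tlx1* (rho of -0.66, p of 0.00091 and 0.00179, adjusted p of 0.0204 and 0.0215). Without the 2 farthest embryos they were -0.70 and -0.58. With the 7 neural tube markers, the *Isl1* ratio had an r of -0.59 and a rho of -0.69. Permutation p was 0.00483 and 0.00083, and adjusted p 0.0386 and 0.01325. The summed myocardial level ranged from 344 to 5921 CPM over the rightward mutants and from 1384 to 5565 CPM over the inverted mutants, with no myocardial marker at 0 in all libraries. The part of these markers in the pairing of *Isl1* and *Tlx1* was not tested.

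**Figure D3:**
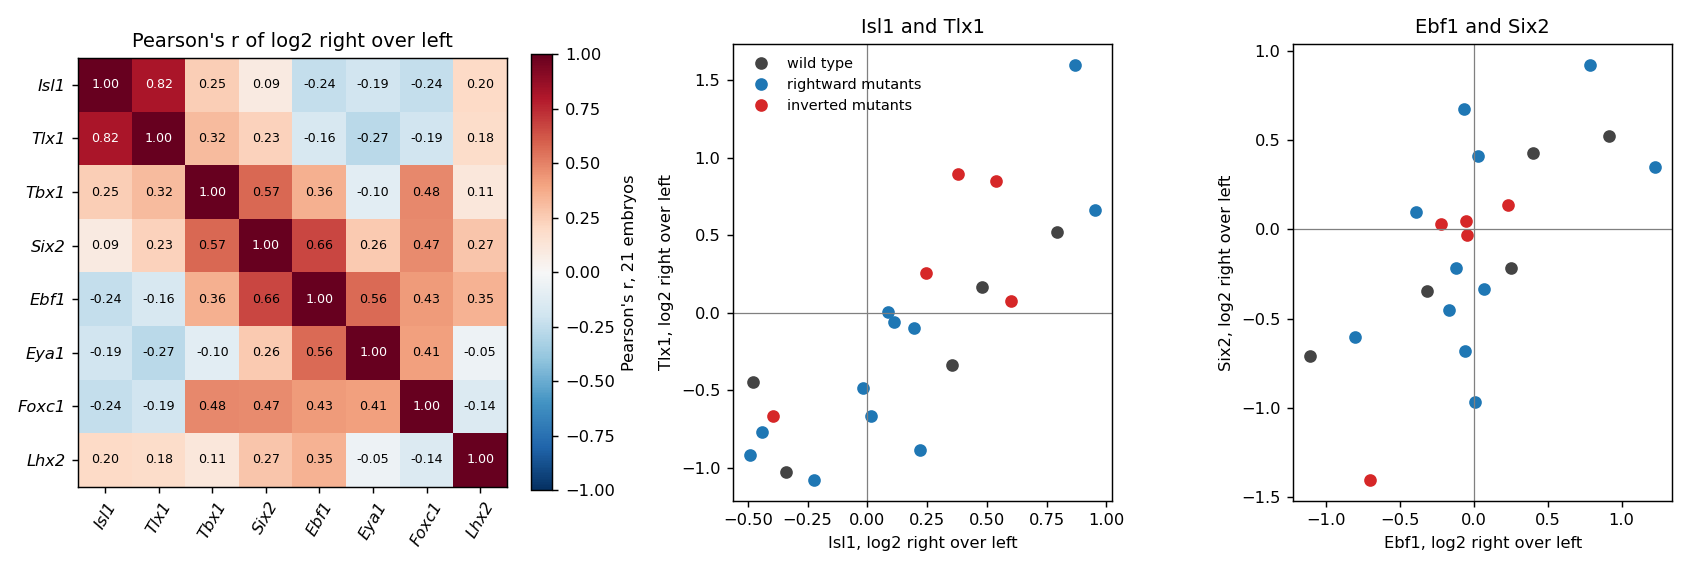
Left, Pearson's r of the log2 right over left ratios for each pair of 8 genes over 21 embryos, from -1 (blue) to 1 (red). Middle and right, the ratios of *Tlx1* against *Isl1* and of *Six2* against *Ebf1*, 1 point per embryo. *Isl1* and *Tlx1* fall along a rising line with an r of 0.82, while *Isl1* and *Ebf1* have an r of -0.24.

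Promoters are shown for the 2 pairs of genes whose ratios passed the adjusted threshold by Pearson's r, *Isl1* with *Tlx1* and *Ebf1* with *Six2*, of which the latter did not pass by rank. Each window holds 250 bases before and 50 bases from the annotated start in GRCm39, 5′ to 3′ on the strand of the gene, at chr13:116446186-116446485 on the minus strand for *Isl1*, chr19:45138849-45139148 on the plus strand for *Tlx1*, chr11:44507888-44508187 on the plus strand for *Ebf1* and chr17:85995654-85995953 on the minus strand for *Six2*. Capitals mark matches on either strand to the CCAAT box (CCAAT), the GC box (GGGCGG), the E-box (CANNTG), an EBF motif (CCCNNGGG), the TATA box (TATAAA), a T-box motif (AGGTGT), a LIM homeodomain motif (CTAATG) or a FOX motif (TGTTTAC).
Isl1: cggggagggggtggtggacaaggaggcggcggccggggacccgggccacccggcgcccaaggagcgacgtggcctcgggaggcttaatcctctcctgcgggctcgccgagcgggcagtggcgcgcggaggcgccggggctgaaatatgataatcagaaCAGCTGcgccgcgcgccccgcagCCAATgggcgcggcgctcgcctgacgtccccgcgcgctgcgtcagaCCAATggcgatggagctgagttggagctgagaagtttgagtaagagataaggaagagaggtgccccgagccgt
Tlx1: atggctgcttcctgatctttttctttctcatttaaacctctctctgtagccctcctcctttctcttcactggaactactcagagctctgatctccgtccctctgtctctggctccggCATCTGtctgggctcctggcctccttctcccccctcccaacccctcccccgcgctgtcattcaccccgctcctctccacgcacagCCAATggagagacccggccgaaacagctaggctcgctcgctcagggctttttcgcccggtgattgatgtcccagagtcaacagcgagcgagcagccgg
Ebf1: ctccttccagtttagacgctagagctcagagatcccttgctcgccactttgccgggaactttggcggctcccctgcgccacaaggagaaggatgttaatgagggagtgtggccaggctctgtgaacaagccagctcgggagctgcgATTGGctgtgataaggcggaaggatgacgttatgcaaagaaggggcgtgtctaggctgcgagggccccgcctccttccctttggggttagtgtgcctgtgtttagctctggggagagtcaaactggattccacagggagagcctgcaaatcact
Six2: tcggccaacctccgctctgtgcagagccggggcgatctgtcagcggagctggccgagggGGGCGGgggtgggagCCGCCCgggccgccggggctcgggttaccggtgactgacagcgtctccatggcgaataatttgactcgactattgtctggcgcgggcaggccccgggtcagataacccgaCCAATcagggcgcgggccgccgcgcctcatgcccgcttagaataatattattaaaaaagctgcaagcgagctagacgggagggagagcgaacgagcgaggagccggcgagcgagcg

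The first base of a CCAAT match lay at positions -69 and -23 of *Isl1*, -48 of *Tlx1*, -104 of *Ebf1* (on the opposite strand) and -66 of *Six2*, where 1 is the annotated start. A CCAAT box was present in 7 of the 9 promoters and in 40.0% of 21664 promoters of protein-coding genes. The 9 promoters held a GC box in 5 cases (42.5% of all promoters), an E-box in 5 (70.6%) and the EBF motif in 2 (15.1%), namely *Tbx1* and *Lhx2*. The TATA box (13.2%), the T-box motif (14.6%), the LIM homeodomain motif (7.35%) and the FOX motif (3.14%) matched in 0 of the 9. GC content was 69.3% for *Isl1* and 59.0% for *Tlx1*, with the highest of the 9 at 84.0% for *Tbx1* and the lowest at 39.3% for *Eya1*. A match is a description of these letters only.

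*Tbx1* (ENSMUSG00000009097, chr16:18399729-18409421) encodes a T-box factor of pharyngeal mesoderm, endoderm and otic tissue that is required for outflow tract growth. Among the 8 genes above the filter on low counts, it had the largest differences between the sides of single embryos. On the left of the wild types 7_1, 8_1, 10_1, 17_7 and 22_4 it was at 24.8, 16.8, 33.5, 35.8 and 40.2 CPM, and on the right at 40.3, 27, 6.59, 41.7 and 37.4 CPM. For *Tbx1* in the inverted mutants 2_7, 4_6, 10_3, 18_2 and 32_2, the left had 18.8, 51.7, 31.1, 43.4 and 18.2 CPM and the right 32.5, 19.2, 45.7, 9.56 and 20.1 CPM. Rightward mutants had from 17.2 to 57.1 CPM on the left (median 30.7) and from 15.3 to 62.4 CPM on the right (median 42.5). In the wild type 10_1 the left held 5.05 times the right, and in the rightward mutant 19_4 the right held 3.05 times the left. The mean log2 ratio of right over left was -0.17 ± 1.26 (SD, n = 5) in the wild types, 0.25 ± 1.00 (SD, n = 11) in the rightward mutants and -0.42 ± 1.31 (SD, n = 5) in the inverted mutants. The ratio exceeded 2-fold in 7 of 21 embryos, and the right side was higher in 3 of 5 wild types, 6 of 11 rightward mutants and 3 of 5 inverted mutants. The exact sign-flip p was 0.938, 0.416 and 0.562, and the 95% confidence interval in the inverted mutants, -2.05 to 1.20, spanned both directions. Leaving out 1 embryo turned the sign of edgeR's value for *Tbx1*, to 0.38 in the wild types without 10_1 and to 0.03 in the inverted mutants without 18_2.

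The size of the *Tbx1* differences, as the root mean square of the log2 ratio over 21 embryos, was 1.09. That was larger than in 99.1% of the 4443 genes within 2-fold of its mean level. The same percentile was 96.4% for *Isl1* (root mean square 0.47), 93.6% for *Ebf1* (0.53), 85.5% for *Eya1* (0.27), 85.4% for *Tlx1* (0.72), 82.0% for *Six2* (0.57), 79.4% for *Foxc1* (0.53) and 66.9% for *Lhx2* (0.71). The *Tbx1* pattern was shared with many other genes. Of 10751 other protein-coding genes with a mean of at least 5 CPM, 514 had a ratio with an r over 0.8 to that of *Tbx1*, against 29 for *Isl1*, 4 for *Ebf1*, 3 each for *Eya1* and *Tlx1* and 0 for *Six2*, *Foxc1* and *Lhx2*. An r under -0.8 was found for 22 genes with *Eya1*, 7 with *Isl1*, 1 each with *Tbx1*, *Six2* and *Ebf1* and 0 with *Tlx1*, *Foxc1* and *Lhx2*. The genes with the highest r to *Tbx1* were *Traf4* (0.96), *Eif2b5* (0.96), *Eif4g1* (0.95) and *Pcgf6* (0.95), of which *Eif2b5* and *Eif4g1* encode translation initiation factors used by all cells. This count was made after the values were seen, and no cause was tested. The *Tbx1* ratio had its highest r among the other regulators with *Six2* (0.57, rho of 0.50, permutation p of 0.00645 and 0.0226, adjusted p of 0.0583 and 0.158 over 28 pairs), which fell to 0.45 without the embryos 10_1 and 18_2.

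*Ebf1* (ENSMUSG00000057098, chr11:44508138-44898918) encodes a COE factor of pharyngeal mesoderm, neural crest derivatives and B cells. Its level in the wild types 7_1, 8_1, 10_1, 17_7 and 22_4 was 15.5, 19.7, 18.5, 21 and 54.3 CPM on the left and 29.3, 23.5, 14.8, 27.8 and 25.2 CPM on the right. The inverted mutants 2_7, 4_6, 10_3, 18_2 and 32_2 had 21.7, 25.2, 32.8, 24.5 and 25.8 CPM on the left and 21.1, 24.2, 28, 15 and 30.2 CPM on the right. Over the 11 rightward mutants, the lowest, median and highest levels were 11.7, 32.8 and 35.7 CPM on the left and 11.9, 29.7 and 71.9 CPM on the right. The sides overlapped in each group, and the single high values were the left of the wild type 22_4 and the right of the rightward mutant 2_2. Log2 right over left averaged 0.03 ± 0.77 (SD, n = 5) in the wild types, 0.04 ± 0.54 (SD, n = 11) in the rightward mutants and -0.16 ± 0.35 (SD, n = 5) in the inverted mutants. The right was higher in 3 of 5, 5 of 11 and 1 of 5 embryos, with an exact sign-flip p of 0.938, 0.838 and 0.375.

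*Six2* (ENSMUSG00000024134, chr17:85991665-85996020) encodes a homeodomain factor that marks progenitors of the outflow tract as well as of the kidney. Wild types, in the order 7_1, 8_1, 10_1, 17_7 and 22_4, had 3.82, 6.47, 3.54, 4.64 and 6.73 CPM of *Six2* on the left and 5.5, 5.56, 2.78, 6.26 and 4.09 CPM on the right. Levels in the inverted mutants 2_7, 4_6, 10_3, 18_2 and 32_2 were 4.93, 5.63, 6.07, 7.32 and 4.72 CPM on the left and 4.82, 5.81, 6.2, 2.74 and 5.2 CPM on the right. *Six2* in the rightward mutants ranged from 3.82 to 9 CPM on the left, with a median of 5.36, and from 3.18 to 10.6 CPM on the right, with a median of 5.57. Again the sides overlapped in each group, and the inverted mutant 18_2 stood apart with 2.65 times more on the left. Mean log2 ratios for *Six2*, right over left, were -0.06 ± 0.53 (SD, n = 5) in wild types, -0.07 ± 0.61 (SD, n = 11) in rightward mutants and -0.24 ± 0.65 (SD, n = 5) in inverted mutants. *Six2* was higher on the right in 2 of 5 wild types, 5 of 11 rightward mutants and 3 of 5 inverted mutants. In edgeR's fit, single embryos set the sign, as the value was 0.03 in the inverted mutants without 18_2 and 0.11 in the wild types without 22_4. The exact sign-flip p was 0.812, 0.696 and 0.875.

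*Eya1* (ENSMUSG00000025932, chr1:14239167-14380543) had the smallest differences between sides of the 8 genes (root mean square 0.27), with a ratio of at most 1.54-fold in any embryo. On the left of the wild types 7_1, 8_1, 10_1, 17_7 and 22_4 it was at 52.1, 48.6, 41.8, 54 and 77 CPM, and on the right at 68.6, 65.5, 53.5, 63.4 and 66.4 CPM. For *Eya1* in the inverted mutants 2_7, 4_6, 10_3, 18_2 and 32_2, the left had 50.2, 60.9, 77.2, 59.9 and 64 CPM and the right 51.1, 67.9, 50.1, 54.3 and 51.1 CPM. Rightward mutants had from 47.4 to 94.9 CPM on the left (median 63.8) and from 48.1 to 130.5 CPM on the right (median 62.8). Both sides overlapped, and the rightward mutant 2_2 had the highest level on either side. Embryo 2_2 also had the lowest summed myocardial level of the 11 rightward mutants on each side, at 1203 (left) and 344 (right) CPM. The group medians were 3013 and 3537 CPM. Its sum of the 11 posterior second heart field genes was the lowest too, at 425 and 345 CPM, against medians of 888.5 and 856.4. Whether tissue content played a part in the high *Eya1*, *Ebf1* and *Tlx1* values of 2_2 was not tested. For *Eya1*, the mean log2 ratio of right over left was 0.24 ± 0.26 (SD, n = 5) in the wild types. It was 0.05 ± 0.19 (SD, n = 11) in the rightward mutants and -0.18 ± 0.31 (SD, n = 5) in the inverted mutants. In the wild types the right was higher in 4 of 5 embryos, where edgeR gave a log2 fold change of 0.25 (SE 0.10) with an unadjusted p of 0.0388 and an adjusted p of 1.0. The exact sign-flip p was 0.125, 0.459 and 0.375. Between inverted and rightward mutants the log2 ratio differed by -0.23 (exact permutation p of 0.0877), and between rightward mutants and wild types by -0.19 (p of 0.116), both with an adjusted p of 0.464 over 16 tests. Without the inverted mutant 10_3, edgeR's value for the former was -0.12. The *Eya1* ratio had an r of -0.64 and a rho of -0.60 with the 8 myocardial markers. Permutation p was 0.00176 and 0.00495, and adjusted p 0.0211 and 0.0396 over 72 pairs. With the 6 neural crest markers r was 0.56 (rho of 0.58, adjusted p of 0.0454 and 0.0472). By r alone it passed with surface ectoderm and placodes (0.57) and visceral endoderm (-0.57, and -0.33 without the 2 farthest embryos). The part of these markers was not tested.

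The ratios of *Ebf1* were next compared with those of *Six2* and *Eya1*. The r of the log2 ratios was 0.66 for *Six2* and *Ebf1* (rho of 0.61, permutation p of 0.00121 and 0.00378), with adjusted p-values of 0.0169 and 0.0529 over the 28 pairs, so that the rank correlation did not pass. It was 0.57 without the embryos 18_2 and 3_7. For *Eya1* and *Ebf1*, r and rho were 0.56 and 0.57 (p of 0.00833 and 0.00847, adjusted p of 0.0583 and 0.0791), and r was 0.53 without the 2 farthest embryos. The pairs *Isl1* and *Ebf1* and *Isl1* and *Eya1* had r of -0.24 and -0.19 (adjusted p of 0.499 and 0.55). Of the 28 pairs, 2 passed the adjusted threshold by r and 1 by rho. The *Ebf1* ratio was compared with the sum of the 6 neural crest markers, which was mostly *Ets1*, a gene that endothelium expresses too, at a median of 99 CPM against 0.177 to 10.02 CPM for the other 5. It had an r of 0.73 and a rho of 0.80 (permutation p of 0.00024 and 3e-05, adjusted p of 0.0137 and 0.00216 over 72 pairs) and an r of 0.69 without the 2 farthest embryos. With the 6 surface ectoderm and placode markers, the *Ebf1* ratio had an r of 0.59 and a rho of 0.56. Permutation p was 0.00614 and 0.01044, and adjusted p 0.0417 and 0.0578. The summed level of the 6 neural crest markers was 50.1 to 196 CPM in the rightward mutants. The part of both lists in the ratios of *Ebf1* was not tested.

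*Foxc1* (ENSMUSG00000050295, chr13:31990616-31996459), a forkhead gene of the second heart field, head mesenchyme and somites, was the only one of the 8 with the same direction in every embryo of a group. Its level in the wild types 7_1, 8_1, 10_1, 17_7 and 22_4 was 4.85, 4.86, 4.82, 6.78 and 5.09 CPM on the left and 6.58, 5.2, 4.72, 4.43 and 5.62 CPM on the right. The inverted mutants 2_7, 4_6, 10_3, 18_2 and 32_2 had 6.54, 6.53, 5.08, 10.6 and 4.99 CPM on the left and 5.57, 6.25, 3.17, 4.23 and 3.98 CPM on the right. Over the 11 rightward mutants, the lowest, median and highest levels were 2.13, 5.19 and 7.99 CPM on the left and 3.85, 5.49 and 7.31 CPM on the right. In the inverted mutants, *Foxc1* was higher on the left of 5 of 5 embryos, although both sides overlapped between embryos. Log2 right over left averaged 0.01 ± 0.38 (SD, n = 5) in the wild types, 0.11 ± 0.52 (SD, n = 11) in the rightward mutants and -0.52 ± 0.50 (SD, n = 5) in the inverted mutants. For the inverted mutants the exact sign-flip p was 0.062, the smallest that 5 embryos can give, and edgeR gave -0.52 (SE 0.19) with an unadjusted p of 0.0237 and an adjusted p of 0.233. DESeq2 gave -0.53 with an adjusted p of 0.0482, so that the call depended on the tool. Leaving out single embryos moved the edgeR value between -0.64 (without 4_6) and -0.33 (without 18_2), with adjusted p-values of 0.225 to 0.456. Compared with the rightward mutants, the ratio was different by -0.63 (SE 0.25), with an adjusted p of 0.355 by edgeR and an exact permutation p of 0.0348, which became 0.464 when adjusted over the 16 such tests.

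The *Foxc1* ratio went with the sum of the paraxial mesoderm markers, which was mostly *Meox1* (r of 0.64, rho of 0.63, permutation p of 0.00142 and 0.00323, adjusted p of 0.0204 and 0.0332 over 72 pairs), and r was 0.42 without the embryos 3_7 and 18_2. In the inverted mutants these 6 markers summed to 102 to 173 CPM on the left and 64.5 to 120.3 CPM on the right, and were lower on the right in 4 of 5 embryos. Their part in the *Foxc1* values was not tested. The inverted mutants also had less of the 7 neural tube markers on the right in 5 of 5 embryos, at 13.7 to 50.5 CPM against 57.2 to 93.5 CPM on the left, and more of the 8 myocardial markers in 5 of 5, at 2656 to 5565 CPM against 1384 to 2688 CPM. The 5 endothelial markers were likewise higher on the right in 5 of 5, by 0.20 to 0.36 on the log2 scale.

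**Figure D4:**
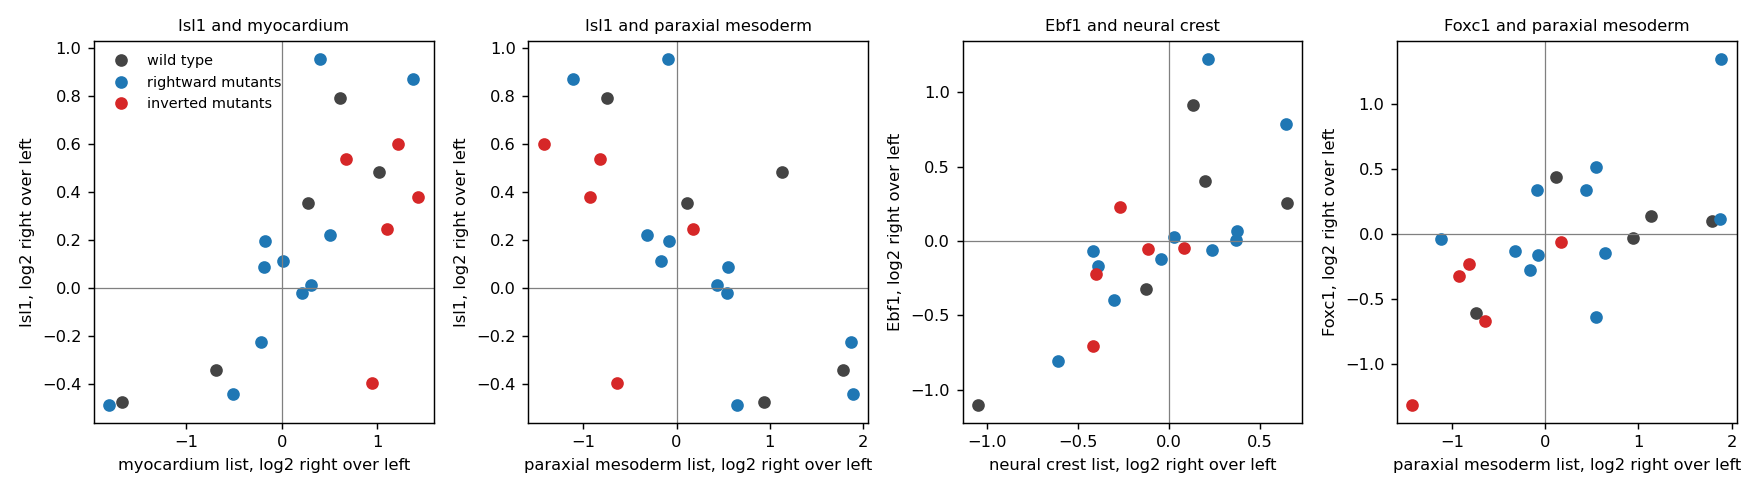
Log2 right over left of *Isl1*, *Ebf1* and *Foxc1* (y axes) against that of the summed CPM of a marker list of another tissue (x axes), 1 point per embryo in the 3 groups. *Isl1* rises with myocardial markers (r of 0.71) and falls with the paraxial mesoderm sum, mostly *Meox1* (r of -0.65), *Ebf1* rises with the neural crest sum, mostly *Ets1* (r of 0.73), and *Foxc1* with the paraxial mesoderm sum (r of 0.64).

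*Lhx2* (ENSMUSG00000000247, chr2:38229293-38259759), a LIM-homeodomain gene of pharyngeal muscle progenitors, eye and forebrain, was counted 17 to 70 times per library. Wild types, in the order 7_1, 8_1, 10_1, 17_7 and 22_4, had 0.668, 1.57, 1.76, 0.788 and 1.35 CPM of *Lhx2* on the left and 0.465, 0.983, 0.743, 1.13 and 0.559 CPM on the right. Levels in the inverted mutants 2_7, 4_6, 10_3, 18_2 and 32_2 were 0.399, 0.463, 1.5, 1.05 and 0.42 CPM on the left and 0.769, 0.611, 1.48, 0.985 and 0.929 CPM on the right. *Lhx2* in the rightward mutants ranged from 0.497 to 1.43 CPM on the left, with a median of 1.03, and from 0.483 to 1.4 CPM on the right, with a median of 1.01. The sides overlapped in the 3 groups. Mean log2 ratios for *Lhx2*, right over left, were -0.61 ± 0.70 (SD, n = 5) in wild types, -0.14 ± 0.67 (SD, n = 11) in rightward mutants and 0.44 ± 0.52 (SD, n = 5) in inverted mutants. The left was higher in 4 of 5 wild types and 7 of 11 rightward mutants and the right in 3 of 5 inverted mutants, with an exact sign-flip p of 0.188, 0.509 and 0.25. The mean ratio of inverted and rightward mutants differed by 0.58 (exact permutation p of 0.111, adjusted p of 0.464 over 16 tests), and in males only edgeR's value for this difference was -0.06 (adjusted p of 0.987). With the 7 neural tube markers, the *Lhx2* ratio had an r of -0.60 and a rho of -0.58. Permutation p was 0.00463 and 0.00702, and adjusted p 0.0386 and 0.0472 over 72 pairs. The part of these markers in the *Lhx2* values was not tested.

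*Pitx3* (ENSMUSG00000025229, chr19:46123719-46136916), a homeobox gene of lens and midbrain, had 0 to 9 counts per library and 112 counts in all, with 0 counts in 9 of 42 libraries. A count of 0 allows up to 3 counts, which is 0.0476 to 0.0832 CPM at these depths. In the wild types the counts on the left were 1, 0, 0, 0 and 1 and those on the right 7, 2, 0, 1 and 2 in the embryos 7_1, 8_1, 10_1, 17_7 and 22_4. In the inverted mutants they were 2, 6, 8, 4 and 2 on the left and 2, 3, 0, 1 and 3 on the right of the embryos 2_7, 4_6, 10_3, 18_2 and 32_2. No difference was detectable at this depth, as edgeR gave differences of asymmetry of -1.06 (SE 1.05, adjusted p of 0.78) between inverted and rightward mutants and -2.31 (SE 1.30, adjusted p of 1.0) between rightward mutants and wild types. *Pitx3* shares 1373 exonic bases with *Elovl3* on the opposite strand, which had group totals of 5 to 22 counts, so that the few reads of either could belong to the other.

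No regulator passed the test of levels within a side either. On the left, edgeR called 0 of 8 genes between inverted and rightward mutants (0.0121% of 24838 genes) and 0 of 8 between rightward mutants and wild types (0.0242%). On the right it called 0 of 8 in both contrasts (0.00805% and 0.0121% of 24859 genes). None of the 8 had an unadjusted p under 0.05 in any of these contrasts, where 4.26% to 7.89% of all genes had one between inverted and rightward mutants and 5.02% (left) and 3.28% (right) between rightward mutants and wild types, and DESeq2 called 0 of the 8 in each. Of all genes, DESeq2 called 0.338% and 0.0805% on the left, for inverted over rightward mutants and for rightward mutants over wild types, and 0.0644% and 0.0241% on the right. The lowest unadjusted p was 0.0507, for *Eya1* on the left of rightward mutants over wild types, at a log2 fold change of 0.28 (SE 0.14). All 8 genes except *Lhx2* had positive, not significant values on the left of rightward mutants over wild types, with log2 fold changes of 0.11 to 0.42. On the right of inverted over rightward mutants, *Tbx1* had -0.65 (SE 0.37, adjusted p of 1.0) with means of 25.4 ± 14 CPM (SD, n = 5) and 40.2 ± 13 CPM (SD, n = 11), and values of -1.02 without the inverted mutant 10_3 to -0.45 without 18_2.

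Genes with the most similar pattern over the 42 libraries are given by Pearson's r of log2 CPM among 15218 genes with a mean of at least 1 CPM. These are descriptions without a test, since the libraries come in pairs and share depth and tissue content. *Isl1* was closest to *Nkx2-6* (0.87), a homeobox gene of pharyngeal endoderm and arches, *Capn6* (0.83) and *Efna1* (0.82). *Tlx1* was closest to *Nkx2-6* (0.77), *Isl1* (0.75) and *Capn6* (0.74), so that both had 2 of their 3 nearest genes in common. Genes with a pattern like that of *Eya1* included *Tril* (0.79) and *Nrg1* (0.78). *Ebf1* was closest to *Cyp26c1* (0.86), an enzyme that degrades retinoic acid, *Adamts4* (0.85) and *Gm12829* (0.84). *Tbx1* was closest to *Pcgf6* (0.91), *Sema4c* (0.88) and *Anp32b* (0.88), and *Six2* to *Gm266* (0.80), *Prkcb* (0.78) and *Irx1* (0.74). For *Foxc1* the nearest were *Fzd2* (0.80), a WNT receptor, *Foxd2* (0.73) and *Crnde* (0.72), and for *Lhx2* they were *Scn3a* (0.67), *Rad54b* (0.61) and *Zmym6* (0.60).

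In the inverted mutants, some of the other genes of the field passed the test of right against left, which called 2.04% of all genes there. Of the 18 other second heart field and pharyngeal mesoderm genes, 1 (*Mef2c*) passed in the inverted mutants and 5 (27.8%) had an unadjusted p under 0.05, beside 15.1% of all genes. The gene *Mef2c*, a myogenic factor of heart progenitors and muscle, had a log2 fold change of right over left of 0.73 (SE 0.09, adjusted p of 0.00759). None of the 18 passed in the wild types or the rightward mutants, where 2 (11.1%) had an unadjusted p under 0.05 in each group, beside 2.76% and 3.59% of all genes, *Gbx2* (0.37) and *Dach1* (0.35) in the wild types and *Msc* (-0.45) and *Tcf21* (-0.23) in the rightward mutants. DESeq2 called 0 of the 18 in these groups and 2 in the inverted mutants, *Mef2c* and *Fgf8*, where it called 7.64% of all genes. The median of the 18 was -0.01 in the inverted mutants, beside -0.00502 over all genes. Of the 11 posterior second heart field genes, 3 passed in the inverted mutants and were higher on the right, namely *Tbx5* at 0.74 (SE 0.09), *Osr1* at 0.60 (SE 0.10) and *Wnt2* at 0.59 (SE 0.09), with adjusted p-values of 0.00702, 0.0212 and 0.0166. The median of the 11 was -0.00647, with 5 of them above 0 and 6 below. In the inverted mutants, 6 of the 11 (54.5%) had an unadjusted p under 0.05, beside 15.1% of all genes, and DESeq2 called 5, which were *Tbx5*, *Osr1*, *Wnt2*, *Aldh1a2* and *Hoxb1*, the last 2 lower on the right with edgeR values of -0.31 (SE 0.08) and -0.25 (SE 0.10). In the rightward mutants, 0 of the 11 passed and *Osr1* had -0.45 (SE 0.12, adjusted p of 0.95), and in the wild types 0 of the 11 passed, with *Hoxb1* at 0.19 (SE 0.06, adjusted p of 1.0). In the rightward mutants and the wild types, 1 and 2 of the 11 had an unadjusted p under 0.05, and DESeq2 called 0 in both groups. For the difference between inverted and rightward mutants, edgeR called 0 of the 18 and 0 of the 11, beside 0.311% of all genes, with 4 and 3 at an unadjusted p under 0.05, beside 10.5% of all genes, and DESeq2 called 0 and 1 (*Osr1*), beside 1.62%. Among markers, 7 of 8 of the myocardium passed in the inverted mutants and were higher on the right, among them *Ttn* (1.27), *Actc1* (1.12), *Myl4* (1.08) and *Tnni1* (1.05), while *Pax6* (-2.02), *Olig2* (-1.77) and *Nkx6-1* (-1.45) of the neural tube and *Myf5* (-2.44) of paraxial mesoderm were lower on the right. The lists of other tissues had median log2 fold changes of right over left in the inverted mutants of 0.18 for pharyngeal endoderm, -0.21 for neural crest, -0.18 for surface ectoderm and placodes, 0.20 for endothelium, -0.26 for primitive blood and 0.62 for visceral endoderm. For the difference between mutants, edgeR called 0 of 8 myocardial, 0 of 7 neural tube and 0 of 6 paraxial mesoderm markers, beside 0.311% of all genes. Of these, 7, 1 and 3 had an unadjusted p under 0.05, beside 10.5% of all genes. DESeq2 called 0, 0 and 1 (*Tcf15*), beside 1.62%. The part of the markers in the values of the other genes was not tested.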

How the data were processed

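RNA of paired left and right heart fields was sequenced from 21 mouse embryos, as 42 libraries. The authors trimmed adapters, aligned the reads with STAR to GRCm39, removed duplicates and counted reads on Ensembl genes with featureCounts of Subread 2.0.6. The deposited values are these raw counts per gene, whole numbers without normalization or a filter, for 56953 genes. The use of strand and the treatment of reads on overlapping genes are not given in the sources used here, so counts of overlapping genes are uncertain. Columns were mapped to embryos and sides by the sample labels, and 0 columns were left without a sample. Chi-square tests of counts over the 861 pairs of libraries found no copies (at least 6.75 per gene tested).

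The 9 genes and the lists beside them were chosen with earlier results of these data known. Names and positions came from GENCODE M39, which held 56310 of the identifiers. Groups are the genotype and looping direction of the labels. Each embryo is 1 replicate. Pairing comes from the embryo in the labels. Over the 2000 most variable genes, the deviations of both sides of an embryo from their group means had a median correlation of 0.44, against -0.08 between embryos of a group. The correlation within an embryo was above 0.1 in 19 of 21 embryos, and the lowest was -0.18.

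Counts were scaled by TMM and tested with edgeR 4.0.16 in R 4.3.3 (quasi-likelihood, Benjamini-Hochberg over all genes, threshold 0.05) after filterByExpr (min.prop 0.2, large.n 50, a minimum count of 5 and a minimum total of 10). Right over left was fitted within each group with a block for the embryo, the difference of asymmetry between groups in all 42 libraries likewise, and levels within a side with sex as a covariate. Ratios per embryo used log2 CPM with a prior count of 2. Sign-flip and group permutation tests were exact and two-sided, and correlations had 100000 permutations in Python 3.11.15. Confidence intervals are 95% intervals of the mean over embryos. The SE beside an edgeR value is the absolute log2 fold change over the square root of the test's F statistic. CPM of a list are the sum over its genes. Simulated data with 200 changed genes tested edgeR's right over left in the inverted mutants and the difference between inverted and rightward mutants. They also tested the level on the left of inverted over rightward mutants. The other comparisons were not simulated, and the outcome is not reported here. Alternatives were DESeq2 1.42.0 (local fit), its size factors, no filter, at least 10 counts in every library, males only, no embryo block, no sex term, 1 fit of 42 libraries, a prior count of 0.5 and each embryo left out. Named genes were the 9 regulators and, from each list and comparison, up to 4 genes past the threshold by absolute log2 fold change, or up to 3 with the smallest unadjusted p where a list had none. The 3 genes of most similar pattern were named for each regulator. Some genes that these rules name are not reported here.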

Additional observations from a re-analysis of the deposited data

Results flagged for a closer look

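Values were checked for a sample far from the others of its group in the wild types and the inverted mutants, with 5 embryos each, as groups of 4 to 10 can be checked. The 11 rightward mutants, among them 2_2, were therefore not checked. Of 48 such checks, 6 exceeded the 95% limit of 0.71, where chance gives about 1 in 20. The log2 right over left of *Tbx1* was -2.34 in the wild type 10_1, with the other wild types between -0.10 and 0.70. That of *Six2* was -1.41 in the inverted mutant 18_2, with the others between -0.03 and 0.14. On the right of the inverted mutant 4_6, *Eya1* was at 67.9 CPM, with the others at 50.1 to 54.3 CPM. *Foxc1* was at 6.78 CPM on the left of the wild type 17_7 (others 4.82 to 5.09 CPM) and at 10.6 CPM on the left of the inverted mutant 18_2 (others 4.99 to 6.55 CPM). *Ebf1* was at 54.3 CPM on the left of the wild type 22_4, with the others at 15.5 to 21 CPM.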

How the results depend on the processing

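No regulator was called in any of the 9 comparisons by edgeR's test, nor under any alternative run, except that DESeq2 called 1 of the 8 genes in the inverted mutants (*Foxc1*, adjusted p of 0.0482) and the fit without the inverted mutant 10_3 called 1 (*Isl1*), so that leaving out single embryos gave 0 to 1. Of 456 values of the regulators under settings other than leaving out an embryo, 18 changed sign, none of them called, and 1 moved by over 1 SD between embryos (*Lhx2*, difference between inverted and rightward mutants, -0.06 in males only). Of 1176 values with an embryo left out, 60 changed sign and 0 moved so far. Counts of called genes over the whole table moved more, and the cause was not tested. DESeq2 called 19 genes for right over left in the wild types, 31 in the rightward mutants and 1755 in the inverted mutants, 426 for the difference between inverted and rightward mutants, 84 and 20 for the levels on the left (inverted over rightward mutants, and rightward mutants over wild types) and 16 and 6 for those on the right. Without the filter, the counts were 2 in the wild types, 942 in the inverted mutants, 131 for the difference between mutants, 11 on the left and 8 on the right for rightward mutants over wild types. With at least 10 counts in every library they were 3 on the left for rightward mutants over wild types and 4 on the right for inverted over rightward mutants. In males only they were 1 in the rightward mutants, 53 in the inverted mutants, 7 for the difference, 1 and 0 on the left and 0 and 0 on the right. With no replicate block, against the paired fits, they were 1 in the rightward mutants, 305 in the inverted mutants and 17 for the difference, and no call of a regulator changed. With no sex term, 0 genes were called on the right for inverted over rightward mutants. The fit of 42 libraries gave 1 in the wild types and 141 in the inverted mutants. Leaving out each embryo gave 0 to 0 in the wild types, 2 to 8 in the rightward mutants, 138 (without 32_2) to 446 in the inverted mutants, with 181 without 18_2 and 222 without 4_6, 18 (without 18_2) to 192 (without the wild type 10_1) for the difference between mutants, 0 to 0 for that between rightward mutants and wild types, 2 to 6 and 1 to 11 on the left and 0 to 4 and 0 to 12 on the right. A prior count of 0.5 moved no mean ratio by over 1 SD. With 5 embryos, a sign-flip test cannot pass 0.05, and *Pitx3* could not be compared at these counts.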
